A study of Mus musculus with 16 samples.

Results

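The chemokine ligands and chemokine receptors were followed in the liver and kidney transcriptomes of aged mice kept under a regular or a repeatedly advanced light schedule. Members were chosen by gene symbol alone, namely Ccl, Cxcl, Cx3cl1 and Xcl1 for ligands and Ccr, Cxcr, Cx3cr1, Xcr1 and Ackr for receptors. The rule matched 70 rows of the 32989 genes in each table. After the row with the highest mean was kept for the 3 symbols with more than 1 row (Ccl19, Ccl21c and Ccl25), 60 members remained, of which 38 were ligands and 22 were receptors.

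Chemokines are small secreted proteins that form gradients and direct the migration of leukocytes, which sense them through G protein-coupled receptors on their surface. The ligands are divided by the spacing of conserved cysteines into CC, CXC, CX3C and C classes. Inflammatory members are induced by cytokines at sites of damage, and homeostatic members place lymphocytes in lymphoid tissue. The atypical receptors (Ackr) bind ligands without classical G protein signalling and remove or redistribute them. In the liver, Kupffer cells, sinusoidal endothelium, stellate cells and hepatocytes are known sources. In the kidney, tubular epithelium, glomerular cells and resident macrophages are.

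The comparison asks how long exposure to a shifting light schedule, a model of chronic jet lag, bears on gene expression in organs of aged mice. Libraries came from male C57BL/6J mice aged 97 weeks. LD mice had a fixed light period from 8 to 20 o'clock, and ADV mice had the light schedule advanced by 8 h once every 4 days for 85 weeks. Liver and kidney RNA of 4 LD mice (L63, L65, L86 and L104) and 4 ADV mice (A75, A91, A94 and A115) was sequenced, with 1 library per mouse and organ, so that both organs of the same 8 mice gave 16 libraries. Bulk RNA of whole organs was used, in which fewer cells of a type and less RNA per cell cannot be told apart. In the order in which the mice are named here, LD values and ADV values are given for each organ below.

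Liver libraries held 22.7 to 26.3 M fragments (M, 1e6) and kidney libraries 17.1 to 19.7 M. A single fragment on 1 kb of exon was therefore worth 0.0380 to 0.0440 FPKM (fragments per kilobase of exon, scaled to the total of the library) in liver and 0.0508 to 0.0584 FPKM in kidney. Hepatocyte markers summed to between 55665 and 68273 FPKM in the livers and to between 18.3 and 80.0 in the kidneys, and 4 of 7 tubule markers were at 0 in all livers, so that each organ carried its own defining markers. ADV mouse A94 stood apart. It had the highest value of the 8 mice in 49.7% of 12835 liver genes and in 26.2% of 14452 kidney genes, where ADV mouse A75 was the highest in 28.1%. The kidney of ADV mouse A115 had 33.8% of its fragments on mitochondrial genes, against 9.43% in the lowest ADV kidney and between 15.7% and 18% in the LD kidneys, and the lowest tubule marker sum (1411 FPKM against 2894 to 4365 in the other kidneys). Results are therefore given with and without these mice where they moved.

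Chemokine transcripts were of low to moderate abundance in both organs. In the liver, 16 of the 60 members had a mean above 1 FPKM, 31 lay between 0.1 and 1, and 13 lay under 0.1. The kidney had more members at the upper end, with 29 above 1, 18 between 0.1 and 1 and 13 under 0.1. Ccl21b, Ccl21c and Ccl26 were listed at 0 in all 16 libraries, and Cxcl3 and Cxcl15 were also at 0 in all 8 livers. Reads of low mapping quality had been removed by the authors, so that values of near-identical copies such as Ccl19 and the Ccl21 genes are uncertain. The same holds for members that overlap another gene of the tables (Cxcl10 and Cxcl11 with Art3, Ccl27a with Il11ra1, Cxcl16 with Zmynd15, Cxcr6 with Fyco1, Ccl6 with E230016K23Rik, Cxcl17 with 4732471J01Rik, and Ccl19 and Ccl21a with 4930578G10Rik), because it is not stated whether reads were counted by strand.

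The members lie in clusters on the mouse genome (mm10), with 14 on chromosome 11, 13 on chromosome 9 and 11 on chromosome 5. The chromosome 11 ligands form a run of 6 genes at chr11:82035577-82179812 (Ccl2, Ccl7, Ccl11, Ccl12, Ccl8 and Ccl1) and a run of 5 at chr11:83525778-83664683 (Ccl5, Ccl9, Ccl6, Ccl3 and Ccl4). All 13 members on chromosome 9 are receptors, among them the neighbours Ccr9, Cxcr6, Xcr1, Ccr1, Ccr3 and Ccr2. The interferon-induced ligands Cxcl9, Cxcl10 and Cxcl11 are neighbours at chr5:92321331-92363296, and Cxcl11 is annotated as a polymorphic pseudogene in GENCODE M21. Within the first run on chromosome 11, liver means ranged from 0.0327 FPKM for Ccl1 to 7.52 FPKM for Ccl8, and kidney means from 0.0692 to 39.0 FPKM for the same genes.

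**Figure D1:**
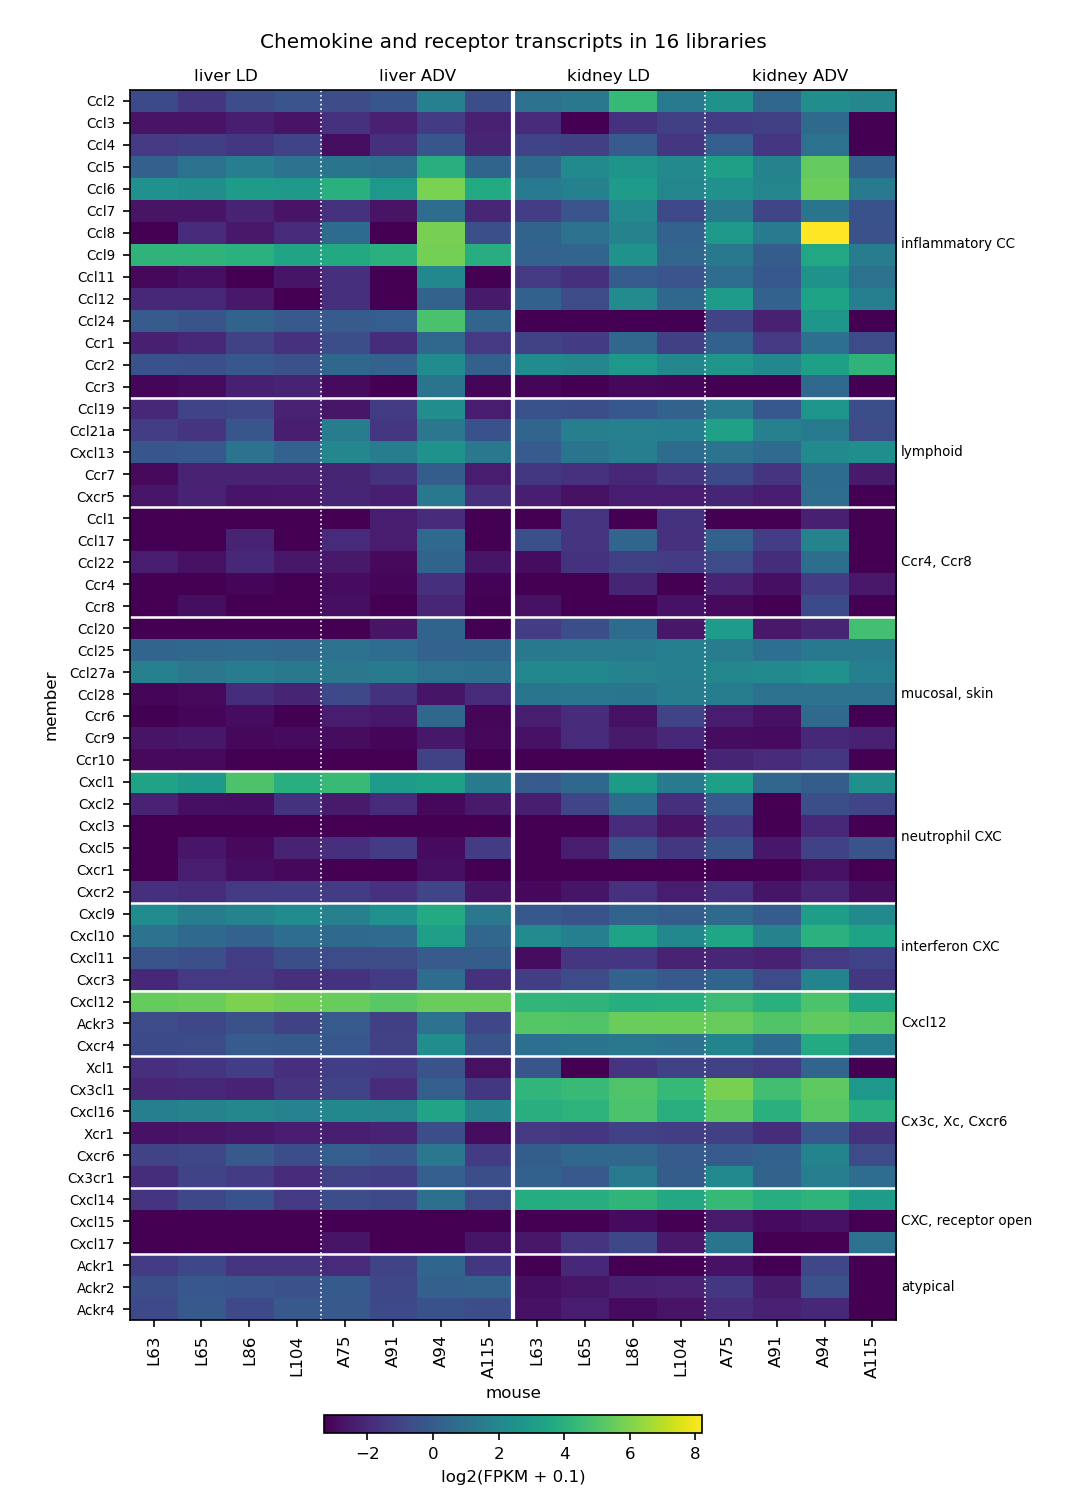
Level of members with at least 1 fragment, as log2(FPKM + 0.1) in colour, with members in rows grouped by receptor family and the 16 libraries in columns by organ, condition and mouse. The liver and kidney columns of A94 are brighter than their neighbours in many rows (Ccl8 reaches 57.6 and 294 FPKM), whereas Cxcl12 in liver and Ackr3, Cx3cl1 and Cxcl14 in kidney are bright in every column.

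Some members are shown with the sequence before their transcription start, because the results below turn on them. Cxcl13 (uc008yfb.1, chr5:95956939-95961068), a B cell attractant, and Ccr2 (uc012hdh.1, chr9:124102183-124109140), the receptor of monocyte attractants, were higher in every ADV liver than in every LD liver, as were 6.94% of all liver genes. Ccl8 (uc007kmt.2, chr11:82115185-82116799), a monocyte attractant, had the highest value of any member in any library, in the kidney of A94. Cxcl9 (uc008ycv.2, chr5:92321331-92328079) and Cxcl10 (uc008ycz.3, chr5:92346638-92348889) are ligands of Cxcr3 that interferon gamma induces. All 5 are protein-coding genes in GENCODE M21. Of the 60 members, 41 had an entry in the RefSeq promoter table (GRCm38.p6) whose start lay within 100 bases of the start in the expression table. The 250 bases upstream were searched on both strands for the core of the interferon-stimulated response element (GAAANNGAA), the gamma-activated site (TTCNNNGAA), the E-box bound by the clock proteins (CACGTG) and the kappa B site. No window is printed for Ccr2, since a longer GENCODE transcript of it begins inside that window. Matches are in capitals, sequences run 5′ to 3′ along the gene, and N stands for any base.
Cxcl13, chr5:95956689-95956938, plus strand: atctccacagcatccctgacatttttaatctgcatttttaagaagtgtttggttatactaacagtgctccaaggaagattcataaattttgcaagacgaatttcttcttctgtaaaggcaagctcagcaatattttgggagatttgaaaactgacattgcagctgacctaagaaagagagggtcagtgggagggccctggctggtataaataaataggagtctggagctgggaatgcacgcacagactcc
Ccl8, chr11:82114935-82115184, plus strand: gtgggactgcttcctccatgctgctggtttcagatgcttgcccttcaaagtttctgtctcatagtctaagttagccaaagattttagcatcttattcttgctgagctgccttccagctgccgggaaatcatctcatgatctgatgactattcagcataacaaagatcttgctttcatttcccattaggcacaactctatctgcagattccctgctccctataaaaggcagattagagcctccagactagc
Cxcl9, chr5:92328080-92328329, minus strand: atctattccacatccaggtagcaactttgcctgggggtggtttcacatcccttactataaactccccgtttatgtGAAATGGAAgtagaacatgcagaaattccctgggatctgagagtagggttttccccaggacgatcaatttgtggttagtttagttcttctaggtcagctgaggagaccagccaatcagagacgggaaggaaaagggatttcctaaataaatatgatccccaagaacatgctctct
Cxcl10, chr5:92348890-92349139, minus strand: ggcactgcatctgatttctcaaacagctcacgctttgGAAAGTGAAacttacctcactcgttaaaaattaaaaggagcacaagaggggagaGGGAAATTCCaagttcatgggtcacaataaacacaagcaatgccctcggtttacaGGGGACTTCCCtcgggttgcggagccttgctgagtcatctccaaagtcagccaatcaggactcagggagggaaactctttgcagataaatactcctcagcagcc
In Cxcl10, the interferon-stimulated core began at position −213 relative to the start, and 3 kappa B matches followed it, of which the last pair overlap each other. Cxcl9 held 1 interferon-stimulated core, from position −175, and Ccr2 held 1 on the opposite strand, from position −86. The windows of Cxcl13 and Ccl8 held none of the 4 motifs. Over the 41 members, the interferon-stimulated core was found in 7 (Ccl1, Ccl3, Ccr2, Cxcl9, Cxcl10, Cxcl14 and Cxcr1) and in 7.13% of all 32851 promoter windows of that length. The kappa B site was found in 10 (Ackr2, Ccl1, Ccl9, Ccl20, Ccr1, Ccr3, Cxcl1, Cxcl2, Cxcl3 and Cxcl10) and in 7.25% of all windows. Gamma-activated sites (Ccl17 and Cxcl14) and E-boxes (Cxcl3 and Xcr1) were found in 2 members each, against 7.02% and 6.02% of all windows. These matches describe letters only.

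In the liver, no single member passed the test between ADV and LD, but 30 of the 35 members tested had a higher mean in ADV and 5 a lower mean, where 65.7% of all genes had a higher mean. Of the 30, 8 (Ccl2, Ccl8, Ccl11, Ccl19, Ccr3, Cxcr3, Cxcr5 and Xcr1) were above the limit for testing only through ADV mouse A94, so that a higher ADV mean was built into their being tested. Of the other 27, 22 had a higher mean. The members tested had a mean above 0.5 when FPKM was multiplied by exon length in kb, and differences are on the log2(FPKM + 0.1) scale. The median difference of these 35 members was 0.60, against 0.096 over all 12835 genes tested, and it was 0.34 with a pseudocount of 1 and 0.39 with quantile normalization. It was 0.62 for 21 ligands and 0.60 for 14 receptors, both of which include members tested only through A94. Over the other 27 members together, the median was 0.56 with all 8 mice. At an adjusted p under 0.05 (limma, Benjamini-Hochberg over all genes), 0 members were called, and 0.00779% of all genes were. At an unadjusted p under 0.05, 7 members were higher, among them Cxcl13, Ccr2, Ccl6, Cx3cr1, Ccl21a and Cx3cl1, and 0 were lower, where 8.65% of all genes were higher and 3.13% lower. This count was 2 without L63 (5.54% of all genes), 3 without L65 (6.17%), 4 without L104 (5.85%) or A75 (8.74%), and 10 without A91 (13.4%). Without A91, 1 member was also lower, where 3.93% of all genes were. In 3 members all 4 ADV livers lay above all 4 LD livers, and in 0 members below, against 6.94% and 1.89% of all genes.

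Cxcl13, made by follicular stroma and by some macrophages, attracts B cells through Cxcr5. Its LD livers had 0.759, 0.806, 2.02 and 1.15 FPKM and its ADV livers 3.97, 2.86, 5.87 and 2.33 FPKM. The groups did not overlap, and the lowest ADV liver, A115, lay just above the highest LD liver, L86. The difference was 1.6 ± 0.35 (SE, 4 mice per group), with an adjusted p of 0.27 by limma. The exact two-sided permutation test over mice gave p = 0.0286, which is the smallest that 4 against 4 mice allow. Without A94 the difference was 1.36 ± 0.31 (adjusted p = 0.16 by limma). The values rest on between 21.5 and 155 fragments per liver.

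Ccr2 carries monocytes from bone marrow into tissue. It was at 0.638, 0.594, 0.774 and 0.632 FPKM in the LD livers and at 1.33, 1.14, 4.79 and 1.05 FPKM in the ADV livers. Every ADV liver was above every LD liver, and A94 was 3.59 times the next highest mouse. The difference was 1.23 ± 0.42 (SE), with p = 0.0286 by the exact permutation test and an adjusted p of 0.36 by limma. Without A94 it was 0.75 ± 0.16, with an adjusted p of 0.14 by limma.

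Ccl3, an inflammatory CC ligand made by macrophages, which was below the abundance limit and was not tested, had no overlap between the groups, with at most 0.0967 FPKM in the LD livers and at least 0.110 FPKM in the ADV livers, on between 1 and 5.5 fragments per liver.

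**Figure D2:**
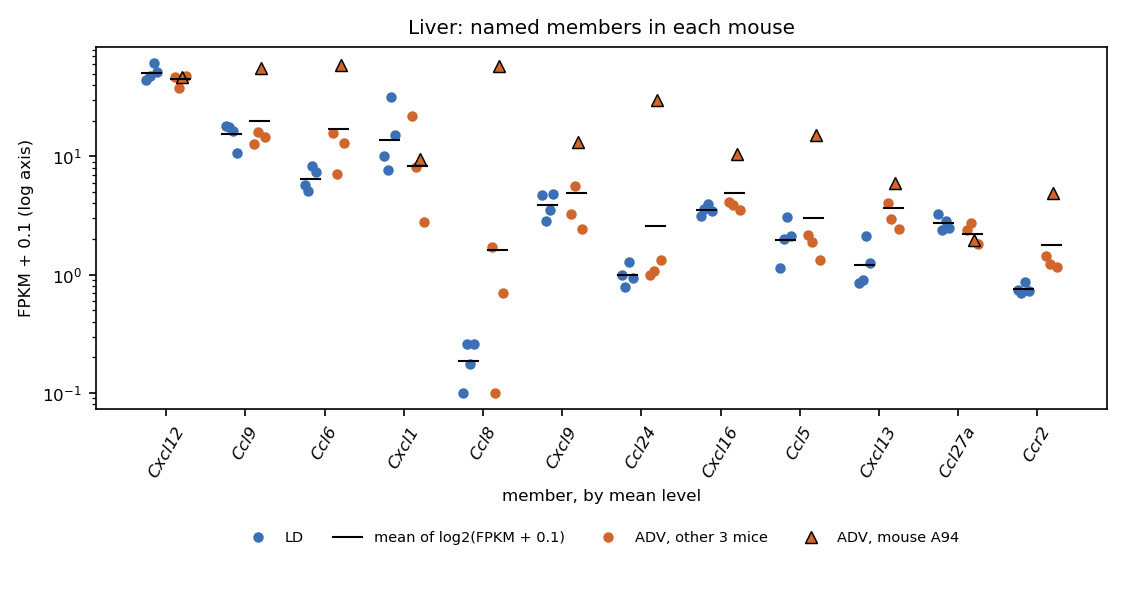
FPKM + 0.1 on a log axis for members named in liver, in order of mean level, with LD mice in blue, ADV mice in orange, A94 as a triangle and the mean of log2(FPKM + 0.1) of each group as a bar. A94 is the highest point for most members, and in Cxcl13 and Ccr2 the other ADV mice also lie above all LD mice.

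The inflammatory CC ligands carried the largest liver values of A94. Ccl8, a ligand of Ccr2 and other CC receptors, was at 0, 0.160, 0.0749 and 0.161 FPKM in the LD livers and at 1.6, 0, 57.6 and 0.594 FPKM in the ADV livers. A94 was thus 36.1 times the next highest mouse, while A91 was at the bottom with L63. The difference was 3.12 ± 1.56 (adjusted p = 0.45 by limma). Without A94, Ccl8 was below the abundance limit.

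Ccl24, an attractant of eosinophils through Ccr3, was between 0.694 and 1.18 FPKM in the LD livers and at 0.897, 0.975, 29.6 and 1.24 FPKM in the ADV livers. Its difference of 1.37 ± 0.96 was 0.19 ± 0.19 without A94. Members named beside the most abundant ones and those with the smallest p, Ccl3 above included, were chosen after their values were seen. The eosinophil attractant Ccl11 and the receptor Ccr3 had the same shape, with 4.07 and 2.09 FPKM in A94 and at most 0.200 and 0.112 FPKM in any other liver. These 3 genes of the eosinophil axis were thus high in 1 liver.

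Ccl6 and Ccl9, related mouse CC ligands of Ccr1 made by myeloid cells, were abundant in every liver. Ccl6 was at 5.61, 5.0, 8.14 and 7.28 FPKM in the LD livers and at 15.6, 6.96, 59.5 and 12.9 FPKM in the ADV livers. All ADV livers but A91 lay above the LD range, and the difference of 1.40 ± 0.54 (adjusted p = 0.39 by limma) was 0.80 ± 0.27 without A94. Ccl9 was between 10.5 and 18 FPKM in the LD livers and at 12.6, 15.9, 55.7 and 14.4 FPKM in the ADV livers, so that the groups overlapped outside A94. Its difference of 0.39 ± 0.43 was −0.10 ± 0.19 without A94. Ccl5, which draws T cells and is made by T and NK cells, had the same dependence, at 15.2 FPKM in A94 and between 1.04 and 2.95 FPKM in the other 7 livers (0.62 ± 0.69 with A94 and −0.16 ± 0.30 without).

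The interferon-induced ligands were high in A94 as well. Cxcl9, made by macrophages under interferon gamma, was between 2.72 and 4.68 FPKM in the LD livers and at 3.14, 5.57, 13.0 and 2.32 FPKM in the ADV livers. Cxcl10 was at 9.02 FPKM in A94 and between 1.13 and 1.97 FPKM in the other 7 livers. Both are members with an interferon-stimulated core upstream described above. The difference of Cxcl9 was 0.34 ± 0.46 with A94 and −0.13 ± 0.29 without. Their receptor Cxcr3, found on activated T and NK cells, was at 1.64 FPKM in A94 and at most 0.309 FPKM elsewhere. Cxcl11 did not follow its neighbours, with 0.893 FPKM in A94, 0.942 FPKM in A115 and 0.676 FPKM in LD mouse L63.

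The lymphoid receptors gave a similar picture. Cxcr5, the Cxcl13 receptor of B cells, was at 2.39 FPKM in A94 and between 0.0578 and 0.197 FPKM in the other 7 livers. Ccr7, which brings T cells and dendritic cells to lymphoid tissue, was at 0.970 FPKM in A94 and at most 0.219 FPKM elsewhere, and its ligand Ccl19 was at 4.97 and at most 0.452 FPKM. Ccl21a, the other ligand of Ccr7, was high in A75 (2.72 FPKM) as well as in A94 (2.24 FPKM) and at most 0.749 FPKM in the remaining livers (1.55 ± 0.69). Of the membrane-bound ligands, Cx3cl1 was between 0.121 and 0.247 FPKM in the LD livers and at 0.408, 0.179, 1.01 and 0.261 FPKM in the ADV livers (0.92 ± 0.41 with A94 and 0.53 ± 0.26 without). Its receptor Cx3cr1, carried by patrolling monocytes, was between 0.163 and 0.411 FPKM in the LD livers and at 0.364, 0.346, 0.973 and 0.586 FPKM in the ADV livers, and the groups overlapped (0.83 ± 0.34). Cxcl16, which binds Cxcr6, was between 3.04 and 3.89 FPKM in the LD livers and at 4.02, 3.81, 10.4 and 3.42 FPKM in the ADV livers (0.48 ± 0.31 with A94 and 0.12 ± 0.12 without).

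Over all tested members, A94 was the highest of the 8 livers in 26 of 35, against 49.7% of all genes. The 26 include the 8 members tested only through A94, and over the other 27 it was the highest in 18. A75 was the highest in 3, A115 and L86 in 2 each and L63 and L65 in 1 each. Without A94, 27 members were above the abundance limit, of which 17 had a higher and 10 a lower mean in ADV, and their median difference was 0.19 against 0.025 over all genes. At an unadjusted p under 0.05, 5 were then higher, among them Cxcl13, Ccr2, Ccl6 and Ccl28, and 0 lower, where 8.8% of all genes were higher and 5.66% lower. A94 was in the ADV group, and its own light schedule was that of the other 3 ADV mice.

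Markers of leukocytes moved with the A94 values in liver. The 7 B cell markers summed to 68.9 FPKM in A94 and to between 1.5 and 3.96 FPKM in the other livers, and the 9 T cell markers to 23.5 against 1.96 to 3.35 FPKM. The 5 plasma cell markers summed to 722 against 61.8 to 92.8 FPKM, and the 8 neutrophil markers to 117 against 4.73 to 16.4 FPKM. None of these markers, nor of the next, was at 0 in all livers. The 6 Kupffer cell markers summed to between 82.0 and 119 FPKM in the LD livers, to between 117 and 134 FPKM in 3 ADV livers and to 406 FPKM in A94, and the 8 macrophage and monocyte markers to between 88.5 and 138, between 121 and 164, and 265 FPKM. Higher means in ADV were found for 6 of 6 Kupffer, 7 of 8 macrophage, 6 of 6 B cell and 7 of 7 T cell markers tested, and 0 were called. Without A94, 6 of 6, 6 of 7, 4 of 4 and 4 of 4 of those still tested had a higher mean. Neutrophil markers went from 5 of 5 to 1 of 3, and plasma cell markers from 3 of 4 to 2 of 3. Their part in the chemokine values was not tested.

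Not every liver ligand was highest in A94. Cxcl12, the homeostatic ligand of Cxcr4 that retains stem cells and lymphocytes in their niches, was the most abundant member in liver. It was at 44.6, 47.4, 61.0 and 51.6 FPKM in the LD livers and at 46.5, 38.0, 46.8 and 47.9 FPKM in the ADV livers. The groups overlapped, with a difference of −0.19 ± 0.12 (adjusted p = 0.53 by limma), which was −0.098 without L86 and −0.11 without A91. Its receptors were low in liver, with Cxcr4 at 4.87 FPKM in A94 and at most 0.892 FPKM in the other livers, and Ackr3 at 1.86 and at most 0.881 FPKM.

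Ccl27a, a skin-homing ligand of Ccr10, was at 3.17, 2.31, 2.72 and 2.37 FPKM in the LD livers and at 2.28, 2.62, 1.86 and 1.72 FPKM in the ADV livers. It had the smallest p among the members with a lower mean (−0.31 ± 0.17, adjusted p = 0.47 by limma), and the groups overlapped. Cxcl1, a neutrophil attractant through Cxcr2, varied widely among mice of both groups. The LD livers were at 9.93, 7.53, 31.7 and 15 FPKM and the ADV livers at 22.0, 8.05, 9.32 and 2.67 FPKM (−0.74 ± 0.61). The difference was −1.21 without A75, −0.34 without L86 and −0.22 without A115. Cxcr2 itself was between 0.187 and 0.309 FPKM in the LD livers and between 0.0567 and 0.434 FPKM in the ADV livers.

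The 25 members not tested in liver were of low level, the highest on average being Ackr1 at 0.418 FPKM. Several had their highest value in A94. Ccl20, the mucosal ligand of Ccr6, was at 1.21 FPKM in A94, 0.0542 FPKM in A91 and 0 in the other 6 livers, and Ccr6 itself was at 1.37 FPKM in A94 and at most 0.0810 FPKM elsewhere. Ccl17 and Ccl22, ligands of Ccr4, were at 1.42 and 1.23 FPKM in A94 and at most 0.167 and 0.147 FPKM in the other livers.

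In the kidney, 32 of 38 tested members had a higher mean in ADV and 6 a lower mean, where 46.4% of all genes had a higher mean, and no member passed the test. Of the 32, 5 (Ccl22, Ccl24, Ccr3, Ccr7 and Cxcr5) were above the limit for testing only through A94, and of the other 33 members 27 had a higher mean. The median difference was 0.66, against −0.024 over all 14452 genes tested (0.31 with a pseudocount of 1), and it was 0.58 for 26 ligands and 0.69 for 12 receptors. Both roles include members tested only through A94, and over the other 33 members together the median was 0.52 with all 8 mice. At an adjusted p under 0.05 by limma, 0 members were called, as were 0% of all genes, and the smallest adjusted p of a member was 0.9999. At an unadjusted p under 0.05, 2 members were higher (Ccl11 and Cxcl9) and 0 lower, where 1.75% of all genes were higher and 1.35% lower. Without A91, 7 members were higher (4.27% of all genes) and the median difference was 0.92, and the median was 0.93 without L86 and 0.41 without L63. There was no member whose 4 ADV kidneys all lay above the LD kidneys or all below, where this held for 0.962% and 1.83% of all genes.

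Ccl11, the eosinophil attractant eotaxin, had the smallest p. Its LD kidneys were at 0.289, 0.191, 0.925 and 0.721 FPKM and its ADV kidneys at 1.66, 0.792, 5.95 and 1.90 FPKM. Only A91 lay within the LD range, which L86 topped. The difference was 1.91 ± 0.64 (exact permutation test p = 0.0571) and 1.40 ± 0.53 without A94. The values rest on between 3.5 and 126 fragments per kidney.

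Cxcl9 was at 0.791, 0.655, 1.18 and 0.969 FPKM in the LD kidneys and at 1.5, 0.935, 8.56 and 4.37 FPKM in the ADV kidneys. A94 and A115 were high, A75 was slightly above the LD range and A91 was within it. The difference was 1.53 ± 0.63 (exact permutation test p = 0.0857) and 0.99 ± 0.50 without A94. Its neighbour Cxcl10 was at 4.65, 3.09, 10.2 and 4.12 FPKM in the LD kidneys and at 10.7, 3.43, 16.3 and 10.2 FPKM in the ADV kidneys, where L86 reached the level of A75 and A115 (0.82 ± 0.53). Its difference was 0.53 without A94 and 1.27 without A91.

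Ccl24 was listed at 0 in all 4 LD kidneys and in A115, and it was at 0.410, 0.110 and 6.81 FPKM in A75, A91 and A94. Against a floor of 3 fragments over the 4 LD kidneys, the ADV mean was at least 56.4-fold higher, a value that A94 carried. Ccl24 lay above the median of the members both as fitted and at that bound, so the bound could not move this median of 0.66.

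**Figure D3:**
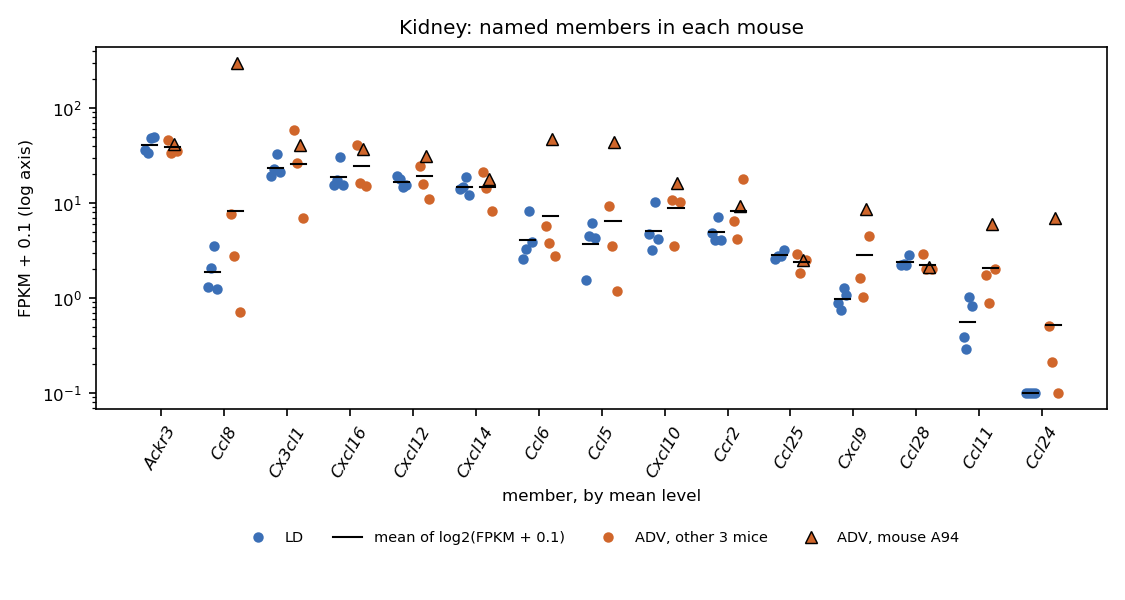
FPKM + 0.1 on a log axis for the members named in kidney, in order of mean level, with LD mice in blue, ADV mice in orange, A94 as a triangle and the mean of log2(FPKM + 0.1) of each group as a bar. Ccl8, Ccl6, Ccl5 and Ccl24 have A94 far above the other mice, while Ackr3, Ccl25 and Ccl28 have overlapping groups of narrow spread. Cxcl14 also has overlapping groups, with a wider spread in ADV.

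Ccl8 had the largest single value of any member. The LD kidneys were at 1.22, 1.96, 3.44 and 1.14 FPKM and the ADV kidneys at 7.49, 2.67, 294 and 0.617 FPKM. A94 was 39.2 times the next highest kidney, and A115 was the lowest of all 8. The difference of 2.14 ± 1.63 was 0.41 ± 0.79 without A94 and 3.31 without A115. Ccl6 was between 2.47 and 8.19 FPKM and Ccl5 between 1.09 and 9.13 FPKM in the other 7 kidneys, and A94 had 47.2 and 43.3 FPKM. The differences were 0.84 ± 0.86 and 0.80 ± 1.02, and −0.055 ± 0.45 and −0.12 ± 0.75 without A94.

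The membrane-bound ligands were abundant in kidney. Cx3cl1 (fractalkine), which epithelium and endothelium display to cells bearing Cx3cr1, was at 19.0, 22.6, 32.5 and 21.2 FPKM in the LD kidneys and at 57.9, 26.5, 40.8 and 6.89 FPKM in the ADV kidneys. A75 was the highest and A115 the lowest of the 8, so that the ADV group spanned the LD group on both sides (0.14 ± 0.60). The difference was −0.25 without A75 and −0.084 without A94. Without A115 it was 0.77 ± 0.27, with an adjusted p of 0.079 by limma, in a fit that called 18.8% of all genes. Cxcl16 had 2 high ADV kidneys (40.8 FPKM in A75 and 36.8 FPKM in A94) and 1 high LD kidney (30.4 FPKM in L86), with the other 5 between 15.1 and 17.5 FPKM (0.38 ± 0.40). Its difference was 0.14 without A75, 0.19 without A94 and 0.61 without either L86 or A115.

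Other abundant members were Ackr3 and Cxcl12. Ackr3, the atypical receptor that clears Cxcl12, was the most abundant member in kidney, at 36.0, 33.5, 47.7 and 49.4 FPKM in the LD kidneys and at 45.5, 33.4, 41.7 and 35.1 FPKM in the ADV kidneys (−0.087 ± 0.19). Cxcl12 itself was at 19.2, 18, 14.6 and 15.5 FPKM in the LD kidneys and at 24.1, 15.8, 30.7 and 10.9 FPKM in the ADV kidneys (0.18 ± 0.31), and its difference was −0.054 without A94 and 0.44 without A115. Cxcl14, expressed by epithelia, was between 12.1 and 18.6 FPKM in the LD kidneys and between 8.09 and 21.2 FPKM in the ADV kidneys (−0.020 ± 0.30). The mucosal ligands Ccl25, which binds Ccr9, and Ccl28, which binds Ccr10, had ranges of 2.45 to 3.06 and 2.10 to 2.72 FPKM in the LD kidneys and of 1.75 to 2.80 and 1.90 to 2.83 FPKM in the ADV kidneys (−0.22 ± 0.20 and −0.084 ± 0.20). In all 5 the groups overlapped.

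Ccr2 was highest in A115 rather than A94. The LD kidneys were at 4.75, 3.93, 7.07 and 3.97 FPKM and the ADV kidneys at 6.33, 4.07, 9.17 and 18 FPKM (0.74 ± 0.44, and 0.36 ± 0.29 without A115). Ccl20 followed the same mouse, with 27.2 FPKM in A115, 7.79 FPKM in A75, 1.61 FPKM in L86 and at most 0.586 FPKM in the other 5 kidneys. Of the Ccr2 ligands, Ccl2 and Ccl7 were highest in LD mouse L86, at 21.2 and 4.41 FPKM, against at most 5.91 and 2.44 FPKM in any ADV kidney. Ccl12, another ligand of Ccr2 in mice, was at 10.1 FPKM in A94, 7.82 FPKM in A75 and 4.59 FPKM in L86, and at 3.04 FPKM or less in the other kidneys (1.46 ± 0.80). The ligands of 1 receptor were thus highest in different mice.

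A94 was the highest kidney in 22 of 38 tested members (26.2% of all genes) and in 17 of the 33 that were not tested only through it, A75 in 7, L86 in 4, A115 in 3 and L104 in 2. Without A94, 21 of 34 members had a higher mean in ADV and 13 a lower one, with a median of 0.13 against −0.099 over all genes, and 1 (Ccl11) was higher at an unadjusted p under 0.05, where 0.847% of all genes were. Without A115, 35 of 40 were higher with a median of 0.76, but the median of all genes was then 0.20 and 18.8% of all genes were called at an adjusted p under 0.05, where 0 of the 40 members were. In that fit 6 members were higher at an unadjusted p under 0.05 (Ccl24, Ccl11, Cx3cl1, Ccl19, Ccl8 and Ccr7), where 29.5% of all genes were, and the smallest adjusted p by limma were 0.058 for Ccl24 and 0.076 for Ccl11. Ccl24 and Ccr7 were above the limit for testing only through A94.

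Leukocyte markers again moved with A94, at 65.0 FPKM for the 7 B cell markers against at most 5.65 FPKM in other kidneys, at 47.3 against at most 11.8 FPKM for the 9 T cell markers, and at 507 against at most 69.9 FPKM for the 5 plasma cell markers. The 8 macrophage and monocyte markers summed to between 55.2 and 172 FPKM in the LD kidneys, where L86 was the highest, and to 178, 66.5, 401 and 66.5 FPKM in the ADV kidneys. All 8 of these and all 9 T cell markers had a higher mean in ADV, as did 5 of 8 and 7 of 9 without A94. Of the B cell and plasma cell markers tested, 6 of 6 and 4 of 4 had a higher mean, but without A94 1 of 4 and 2 of 4 did. In these lists 0 were called, and their part in the chemokine values was not tested.

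**Figure D4:**
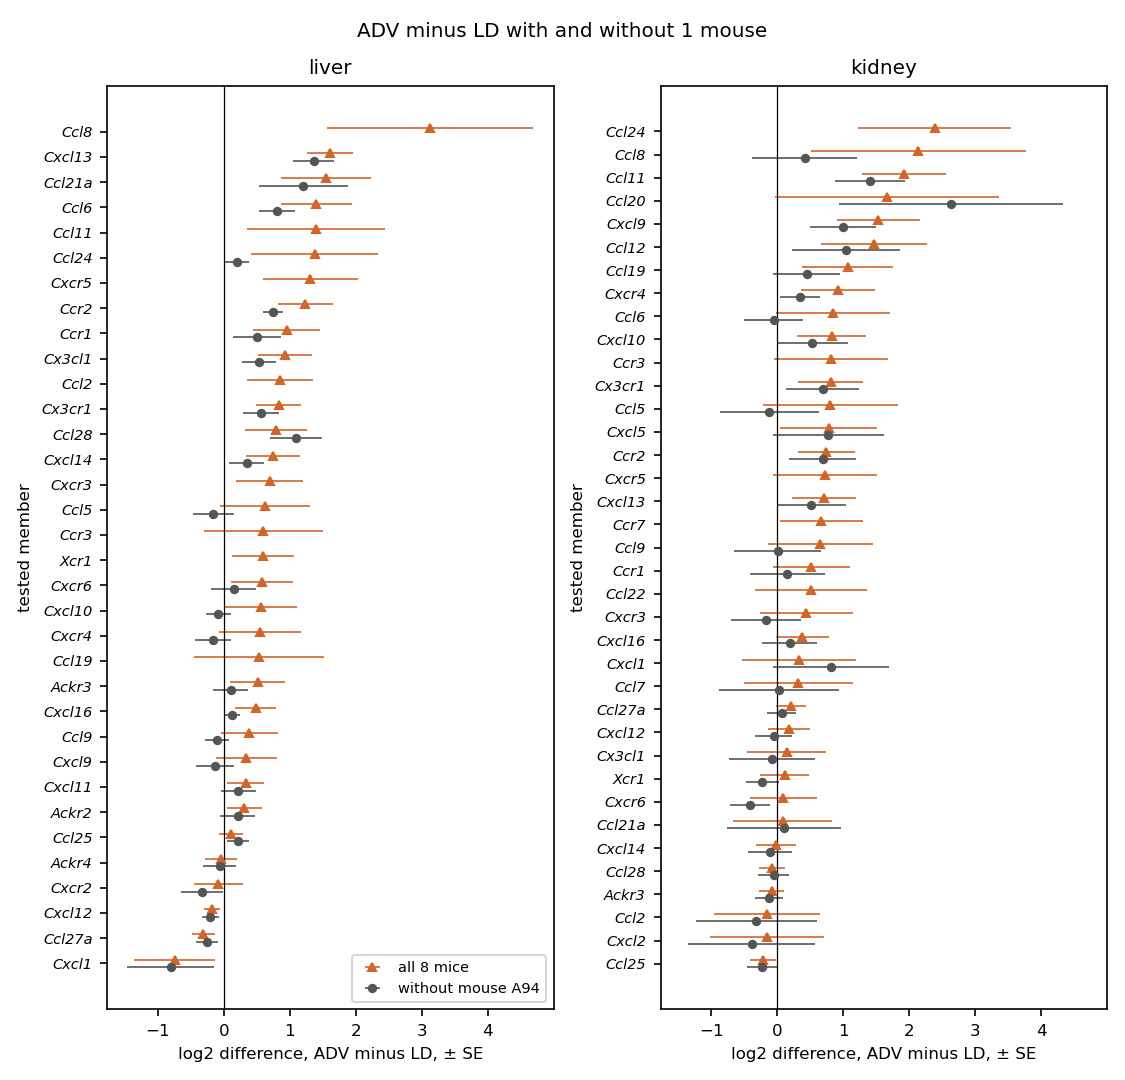
Difference between ADV and LD on the log2(FPKM + 0.1) scale with its standard error for tested members in liver (left) and kidney (right), with all 8 mice (triangles) and without A94 (circles, absent where the member was then below the abundance limit). Over the 27 liver and 33 kidney members tested in both cases, the median was 0.56 and 0.52 with A94 and 0.19 and 0.10 without it.

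By receptor family, the inflammatory CC family (receptors such as Ccr1, Ccr2 and Ccr3 and their ligands) had a higher mean in ADV livers in 11 of 11 tested members, with a median of 0.95 and a range from 0.39 to 3.12, although 4 of the 11, Ccl8 at 3.12 among them, were tested only through A94. Without A94, 5 of the 7 still tested were higher and Ccl5 and Ccl9 were lower, with a median of 0.50. The lymphoid family (Ccr7, Cxcr5 and ligands) had 4 of 4 higher with a median of 1.43, of which Ccl19 and Cxcr5 were tested only through A94, and without A94 2 of 2 with 1.28. The Cxcr3 family had 4 of 4 higher with a median of 0.45, of which Cxcr3 was tested only through A94, and without A94 1 of 3 with −0.082. The neutrophil family (Cxcr1, Cxcr2 and ligands) had 0 of 2 higher in either case. Over all liver genes, 65.7% had a higher mean in ADV with A94 and 54.1% without.

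In kidney the inflammatory CC family had 12 of 13 higher with a median of 0.81, of which Ccl24 and Ccr3 were tested only through A94, and without A94 8 of 11 with 0.15. The lymphoid family had 5 of 5 with 0.71, of which Ccr7 and Cxcr5 were tested only through A94, and then 3 of 3 with 0.44. The Cxcr3 family had 3 of 3 with 0.82, and then 2 of 3 with 0.53. The neutrophil family had 2 of 3 with 0.32, and then 2 of 3 with 0.77. Over all kidney genes, 46.4% had a higher mean in ADV with A94 and 35.7% without. None of these families held a called member.

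Genes that act with the receptors were examined as lists. Of 34 genes of chemokine signalling (G proteins, their kinases and regulators, arrestins, Src family kinases and the Rac pathway), 33 had a higher mean in ADV livers and 28 in ADV kidneys, with medians of 0.36 and 0.28, and 0 were called. Without A94, 22 of 33 in liver and 24 of 34 in kidney were higher, with medians of 0.14 and 0.088. In liver, 3 of the 34 were higher at an unadjusted p under 0.05 (Rgs2, Rgs10 and Elmo1, with differences of 1.16 ± 0.43, 1.11 ± 0.34 and 1.05 ± 0.33), a share near the 8.65% of all genes. Of the cytokines and transcription factors that induce chemokines, 12 of 13 tested in liver and 10 of 12 in kidney had a higher mean, with medians of 0.36 and 0.28, and without A94 8 of 13 and 6 of 12 did, with medians of 0.039 and −0.045. Of the selectins, integrins and their ligands that arrest leukocytes on vessel walls, 14 of 14 tested in liver and 14 of 15 in kidney had a higher mean, with medians of 0.79 and 0.48, and 0 were called. Without A94, 13 of 14 and 11 of 14 did, with medians of 0.29 and 0.16. The differences of these lists and those of the members share the same mice. Over all genes, 65.7% in liver and 46.4% in kidney had a higher mean with A94, and 54.1% and 35.7% without.

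Chemokine-like and related genes with other names were counted apart. Of 7 (Pf4, Ppbp, Ccrl2, Cmklr1, Rarres2, Mif and Dpp4), 5 in liver and 3 in kidney had a higher mean in ADV, with medians of 0.26 and −0.020, and 0 were called. Over all genes, 65.7% in liver and 46.4% in kidney had a higher mean. At an unadjusted p under 0.05 in liver, 2 of the 7 were higher, the platelet chemokines Ppbp and Pf4 (1.59 ± 0.45 and 1.08 ± 0.40), and 1 was lower, the macrophage factor Mif (−0.33 ± 0.13), where 8.65% of all genes were higher and 3.13% lower. Without A94, 6 of 7 in liver and 3 of 7 in kidney had a higher mean, where 54.1% and 35.7% of all genes did. The medians were then 0.082 and −0.057.

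Whether the difference between ADV and LD itself differed between the organs was tested in all 16 libraries. Of 40 members tested, 21 had a larger and 19 a smaller difference in liver, with a median of 0.054 against 0.13 over all 14379 genes. At an adjusted p under 0.05 by limma, 0 members were called, where 0% of all genes were. At an unadjusted p under 0.05, 0 members lay on either side, where 3.1% of all genes lay above 0 and 0.626% below. Without A115, 1 member lay above and 2 below at that p, where 7.62% and 14.2% of all genes did, and 2.88% of all genes but 0 members were called at an adjusted p under 0.05 by limma. The smallest unadjusted p of a member belonged to Ccl27a, with a liver difference lower than the kidney difference by 0.52 (−0.52 ± 0.28). The split of 21 and 19 moved with mouse and scaling. Without A75 it was 26 and 13, with a median of 0.37 (0.23 over all genes). Without L86 it was 18 and 22 with −0.079 (0.11), and with quantile normalization 16 and 24 with −0.21 (0.019). The response of the members was thus not shown to differ between the organs at this number of mice.

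Liver and kidney differed in most genes, and the members were called about as often as genes at large. Of 40 members tested, 30 (75%) were called between the organs at an adjusted p under 0.05 by limma, where 74.5% of all genes were. Of these members, 9 were higher in liver (background 13.1% of all genes) and 21 were higher in kidney (background 61.5%). The background was lopsided because the values as deposited had a median difference of −0.74 over all genes, that is, most genes had higher FPKM in kidney than in liver. The members had a median of −0.90. With median ratio scaling between libraries, the median of all genes was −0.013 and 11 members were called higher in liver and 14 in kidney, where 31.5% and 33.8% of all genes were. With quantile normalization the calls were 13 and 10 (31.3% and 32.3% of all genes). Under all 3 scalings, 9 were called higher in liver and 10 higher in kidney. In 9 members, all with a lower liver value as deposited, the direction was not the same under all 3 scalings (Ccl22, Ccl25, Ccl27a, Ccr1, Ccr7, Cxcl13, Cxcr3, Cxcr6 and Xcr1).

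The largest kidney excess was that of Cx3cl1, with between 0.121 and 1.01 FPKM in the 8 livers and between 6.89 and 57.9 FPKM in the 8 kidneys. The difference of −6.11 ± 0.38 is a 69.2-fold higher level in kidney, found in 8 of 8 mice (adjusted p = 1.01e-09 by limma, exact sign-flip permutation test p = 0.00781, the smallest for 8 mice). Ackr3 was between 0.361 and 1.86 FPKM in the livers and between 33.4 and 49.4 FPKM in the kidneys (−5.82 ± 0.24, 56.6-fold). Cxcl14 was between 0.247 and 1.78 FPKM in the livers and between 8.09 and 21.2 FPKM in the kidneys (−4.53 ± 0.27, 23.1-fold). In each of the 3, every kidney was above every liver. With median ratio scaling these folds were 44.0, 34.5 and 14.2, and with quantile normalization 37.7, 32.8 and 12.4.

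Ccl12 and Ccl28 were 11.0-fold and 10.2-fold higher in kidney (−3.46 ± 0.57 and −3.34 ± 0.26), and 5.51-fold and 4.38-fold with quantile normalization. Their liver means of 0.227 and 0.160 FPKM were near the pseudocount, on which these folds depend. Some receptors and ligands of monocytes lay on the same side, where 61.5% of all genes were called as deposited. Ccr2 was higher in the kidney of 8 of 8 mice (−2.45 ± 0.32), as were its ligands Ccl2 (−2.30 ± 0.51) and Ccl7 (−2.13 ± 0.56), and the Cx3cl1 receptor Cx3cr1 (−1.92 ± 0.31). Of these, Ccr2, Ccl2, Ccl12, Ccl28 and Cx3cr1 were called under all 3 scalings, and Ccl7 was not with quantile normalization. Cxcl16 (−2.37 ± 0.27) and Cxcl10 (−1.77 ± 0.41) were called higher in kidney under all 3 as well. Other members tied to monocytes and myeloid cells did not share this. Ccl8 was called higher in kidney only as deposited, and Ccr1 changed direction with scaling. Ccl9 was higher in liver (2.86 ± 0.48), as was Ccl6 (0.95 ± 0.55), which was not called as deposited.

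On the liver side, Ccl9 had the largest difference as deposited, with between 10.5 and 55.7 FPKM in the livers and between 0.941 and 11.6 FPKM in the kidneys (2.86 ± 0.48, 7.24-fold, 8 of 8 mice, adjusted p = 6.95e-05 by limma). Ccl24 was 6.96-fold higher in liver on this scale, which depends on the pseudocount since 5 of 8 kidneys were at 0 (2.80 ± 0.82), with between 0.694 and 29.6 FPKM in the livers and a highest value of 6.81 FPKM in the kidneys. Cxcl1 was 4.11-fold higher (2.04 ± 0.57), in 7 of 8 mice. Cxcl12 was 2.67-fold higher in liver (1.41 ± 0.17, 8 of 8 mice), so that the organs held the ligand and its clearing receptor Ackr3 in opposite order. With median ratio scaling the folds of Ccl9, Ccl24, Cxcl1 and Cxcl12 were 12.1, 9.89, 6.86 and 4.54. With quantile normalization Ccl9 and Ccl24 both had a log2 difference of 3.58, and Cxcl1 and Cxcl12 had folds of 7.15 and 3.45.

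The 2 other atypical receptors that were tested were also higher in liver. Ackr2, which degrades inflammatory CC ligands, was between 0.455 and 1.19 FPKM in the livers and at most 0.631 FPKM in the kidneys (1.99 ± 0.33, 3.96-fold). Ackr4, which takes up Ccl19, Ccl21 and Ccl25, was between 0.485 and 0.848 FPKM in the livers and at most 0.171 FPKM in the kidneys (2.10 ± 0.21, 4.28-fold). With quantile normalization these folds were 8.23 and 8.35. Kidney means of 0.161 and 0.0794 FPKM were near the pseudocount, so that the folds of both depend on it. The interferon-induced ligands were divided, with Cxcl9 (1.39 ± 0.42) and Cxcl11 (1.35 ± 0.26) higher in liver and Cxcl10 higher in kidney, although the 3 genes are neighbours. Cxcr2 was also called higher in liver under all 3 scalings (0.80 ± 0.27).

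**Figure D5:**
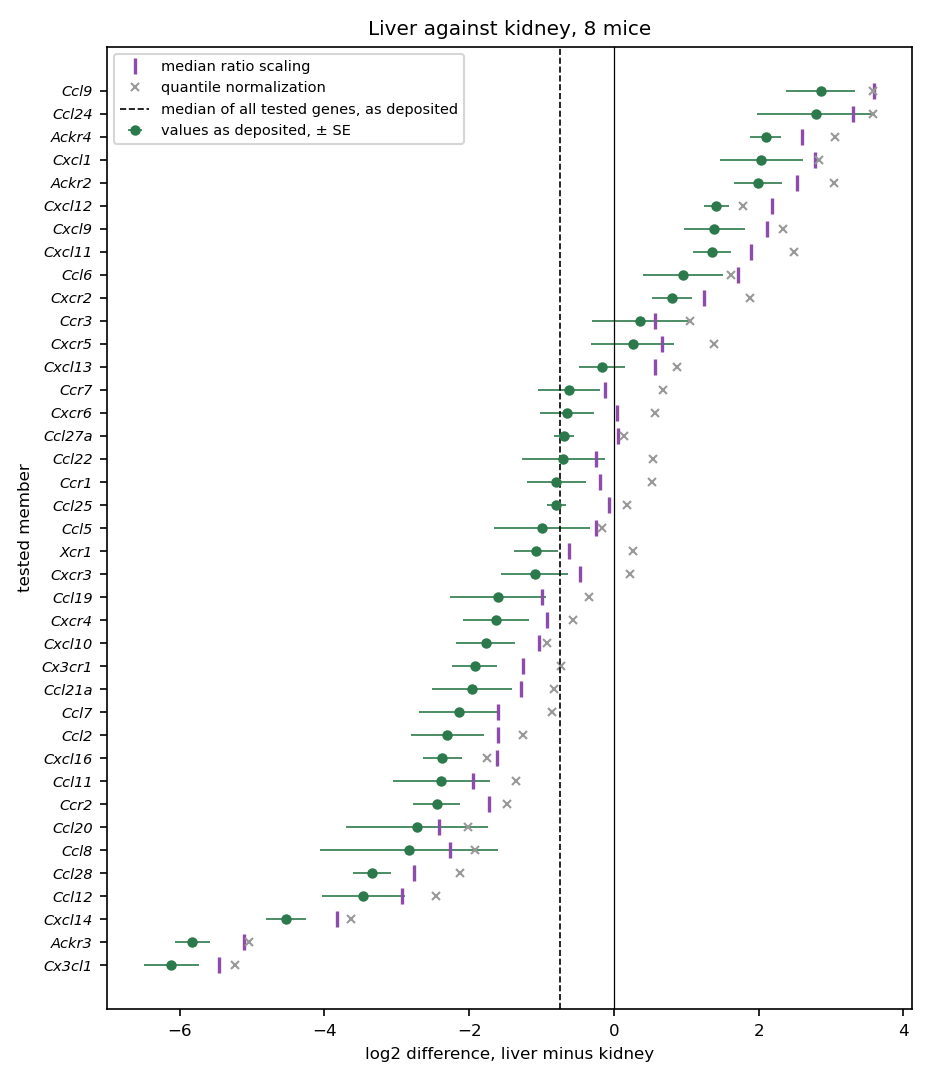
Liver minus kidney on the log2(FPKM + 0.1) scale for tested members over 8 mice, with the values as deposited and their standard error (circles), after median ratio scaling (bars) and after quantile normalization (crosses), and a dashed line at the median of all tested genes, −0.74. Cx3cl1, Ackr3 and Cxcl14 lie far on the kidney side and Ccl9, Ccl24 and Ackr4 on the liver side under each scaling.

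Summed over the 38 ligands, the LD livers held between 95.8 and 140 FPKM and the LD kidneys between 97.6 and 193 FPKM, so that the totals of the organs overlapped. A94 had 342 FPKM in liver and 612 FPKM in kidney, above every other library of its organ. The 22 receptors summed to between 6.17 and 8.75 FPKM in the LD livers and 39.9 FPKM in A94, and to between 45.1 and 67.2 FPKM in the LD kidneys and 91.2 FPKM in A94, and Ackr3 made up most of the total in the LD kidneys.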

How the data were processed

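Poly(A) RNA of whole liver and kidney was sequenced as stranded paired-end libraries at a pair of providers, and which library went to which provider is not given in the sources used here. The authors aligned reads to mm10 with STAR 2.5.4b, removed reads of low mapping quality and counted fragments with HOMER over known canonical genes. The deposited values are FPKM per gene and library, each library divided by its own total, with no scaling between libraries. Values were whole steps of 0.5 fragment, which gave the depth of each library, and sampling noise at low counts adds to the spread between mice.

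FPKM were analysed with limma 3.58.1 in R 4.3.3 (lmFit and eBayes with a trend) on log2(FPKM + 0.1). Genes with a mean above 0.5 fragments per 1e6 fragments were tested, p-values were adjusted by Benjamini-Hochberg over all genes, and the threshold was 0.05. The exact permutation tests were two-sided over 70 assignments of mice or over sign flips of 8 mice. The study's DESeq2 test on counts was not repeated, and the alternative on counts was limma-voom on fragments recovered from the steps of 0.5. Tables were handled in Python 3.11.15 with pandas 2.3.3. The scripts were tested on simulated data.

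In each organ the text names the 10 tested members with the highest mean and, for each direction, the 3 of smallest p, and between organs the 5 with the largest called fold in each direction. Members, families and gene lists (chemokine signalling, chemokine inducers, leukocyte adhesion, chemokine-like and related genes and cell markers) were chosen with earlier results of these data known. Mice with the same name gave both organs, and the deviations of the 2 organs of a mouse correlated between −0.0242 and 0.553 over genes. Alternatives were the pseudocount, the filter, 2 scalings, limma-voom, leaving out each mouse and the mouse as a block. Counts of families and lists without A94 were added after the data were seen. Values of 1 member and 1 listed gene, which the counts include, are not reported here.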

Additional observations from a re-analysis of the deposited data

Results flagged for a closer look

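Among 80 groups of 4 mice examined for the named members, 17 held a mouse whose gap to the nearest other mouse was a large share of the range of the group (above Dixon's critical value). The critical value is set so that chance flags about 1 in 20 single groups. That rate is no yardstick for this count. Members were named partly for a high mean, which A94 raised in some, and the groups share the same mice. Of the 17, 12 were A94.

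In ADV livers, A94 was far above the other 3 mice for Ccl6 (59.5 FPKM), Ccl8 (57.6 FPKM), Ccl9 (55.7 FPKM), Ccl24 (29.6 FPKM), Ccl5 (15.2 FPKM), Cxcl16 (10.4 FPKM), Ccr2 (4.79 FPKM) and Cxcl14 (1.78 FPKM). In ADV kidneys, the same mouse stood out for Ccl8 (294 FPKM), Ccl6 (47.2 FPKM), Ccl9 (11.6 FPKM) and Ccl24 (6.81 FPKM). Ccl6, Ccl8, Ccl9 and Ccl24 thus set this mouse apart in both organs.

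The other 5 were spread over 4 mice. In the kidney, Ccl28 was high in ADV mouse A75 (2.83 FPKM), and Ccl9 (6.04 FPKM) and Cxcl16 (30.4 FPKM) were high in LD mouse L86. In the liver, Cxcl12 was low in ADV mouse A91 (38.0 FPKM), and Cx3cl1 was high in LD mouse L104 (0.247 FPKM).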

How the results depend on the processing

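No member was called between ADV and LD in either organ under any alternative run. Depth limits the members at a few fragments per library, such as Ccl3 in liver and Ccl24 in kidney. Over the 38 named values, 741 alternative values kept direction and side of the threshold and 18 changed direction. Another 4 lost significance (Ccl24 between organs with a pseudocount of 0.5 or 1 or in ADV libraries only, and Cxcl1 in ADV libraries only). Of the 741, 252 in liver and 285 in kidney were ADV differences, which no fit called, so that only their direction could change. Size was not counted, and Ccl24 in liver fell from 1.37 to 0.19 without A94. The count of members called between liver and kidney was 30, between 25 and 30 when 1 mouse was left out, 30 of 33 tested in LD libraries alone and 15 of 42 in ADV libraries alone, where 85.1% and 49.1% of all genes were called. The fit with the mouse as a replicate block also called 30. Leaving out 1 mouse gave these ranges of the ADV difference for the members that changed direction: in liver Ccl9 −0.10 to 0.61, Cxcl9 −0.13 to 0.68 and Ccl5 −0.16 to 1.02, and in kidney Ackr3 −0.18 to 0.0015, Cx3cl1 −0.25 to 0.77, Cxcl12 −0.054 to 0.44, Cxcl14 −0.20 to 0.26, Ccl6 −0.055 to 1.31 and Ccl5 −0.12 to 1.61. With A94 left out and median ratio scaling, Ccl9, Cxcl9 and Ccl5 were at −0.13, −0.15 and −0.18 in liver, and Cx3cl1, Ccl5 and Ccl28 at −0.017, −0.064 and 0.0077 in kidney. With A115 left out and median ratio scaling, Cxcl14 in kidney was at 0.066. The lowest liver values came from leaving out A94, and beyond that the cause was not tested.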
